A study of Mus musculus with 12 samples.

Results

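The 10 genes described here encode amino acid transporters of the plasma membrane and were taken by symbol from a table of 22462 mouse genes: Slc7a1, Slc7a2, Slc7a3, Slc7a5, Slc7a6, Slc7a7, Slc7a11, Slc3a2, Slc1a5 and Slc38a2. All 10 had a row in the table and 9 had enough reads to be tested, with Slc7a11 as the exception. Ribosome profiling was used to ask whether translation changes as mouse embryonic stem cells (ESCs) become epiblast-like cells (EpiLCs), the cells of a later pluripotent state. Ribosome-protected fragments (RPFs), the stretches of mRNA covered by a ribosome, and total RNA were each sequenced in 3 libraries per cell type, 12 in all. The ratio of RPF to total RNA is the translational efficiency (TE).

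The methods give Knockout DMEM with 15% Fetal Bovine Serum for ESCs and name no separate base medium for EpiLCs. ESCs were kept in LIF and 2i (PD0325901 and CHIR99021), which hold the naive state, and EpiLCs came from the same ESCs, collected about 56 h after LIF/2i medium was taken away. The labels name no cell line and no genetic change for either group. The methods of the study list an ESC line derived from V6.5 with fluorescent reporters of miRNA loci for differentiation, and no further line is named for these libraries. The titles number the libraries as replicates, and the study describes them as biological replicates.

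Amino acids cannot cross a lipid membrane, and cells import them through families of carriers with overlapping substrates. Slc7a1, Slc7a2 and Slc7a3 encode single-chain carriers of cationic amino acids such as arginine and lysine. Slc7a5, Slc7a6, Slc7a7 and Slc7a11 encode light chains that do the transport but reach the membrane bound to the heavy chain encoded by Slc3a2, while Slc1a5 and Slc38a2 encode sodium-coupled carriers of glutamine and other neutral amino acids. Pluripotent cells draw on imported glutamine, leucine, arginine and cystine for growth, for signalling through mTORC1 and for glutathione.

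Libraries held 6188838 to 14655015 counts for total RNA and 2681439 to 11359352 for RPF. The EpiLC RPF libraries, with 5413144 counts at most, give the least precise values for low genes. Naive markers summed to 1487 to 1693 CPM (counts scaled to a common library size, with TMM factors) in ESC total RNA and to 48.4 to 90.4 CPM in EpiLC total RNA, and epiblast-like markers to 107 to 199 and 1130 to 1212 CPM. Zfp42, Esrrb and Klf4 changed by -3.45, -5.00 and -5.52 on the log2 scale in total RNA, and Dnmt3b, Otx2 and Fgf5 by 2.98, 3.11 and 5.76. These naive and epiblast-like markers went with the labels. The markers listed for both states, Pou5f1 and Sox2, summed to 1684 to 1852 CPM in ESC and 920 to 1079 CPM in EpiLC total RNA. Pou5f1 changed by -0.65 and Sox2 by -2.72 on the log2 scale in total RNA, so Sox2 was not kept at its ESC level. Both are named after their values were seen. Among 5 fibroblast markers the summed level was 18.8 to 22.8 CPM in ESC RPF and 35.7 to 40.6 CPM in EpiLC RPF, with Col3a1 at 0 counts in ESC RPF, and in total RNA it was 10.03 to 12.98 and 12.02 to 14.5 CPM. The sums hide opposite changes of the tested members. Col1a1, Thy1 and Pdgfrb changed by 2.11, 1.81 and -1.71 on the log2 scale in total RNA and by 1.99, 2.29 and -1.56 in RPF. Neural markers summed to 9.36 to 14.1 and 19.1 to 21.7 CPM in total RNA and to 10.5 to 14.04 and 20.5 to 28.5 CPM in RPF. Their members were unlike, with log2 changes of 4.77 for Pax6 and 0.18 for Sox1 in total RNA and 4.39 and 0.54 in RPF. These single fibroblast and neural markers are named after their values were seen. Endoderm, mesoderm and trophoblast markers each summed to under 20 CPM in every library. The part of these other cell types in the results was not tested, and in bulk samples fewer cells of a type and less RNA per cell cannot be told apart.

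The transporter genes differed widely in level. To compare genes, CPM were divided by the counted coding length in kb. In ESC total RNA the order ran from Slc7a5 at 313 ± 17.8 CPM per kb (SD, n = 3 here and for every mean below) through Slc3a2 at 232 ± 7.998, Slc1a5 at 177 ± 8.95, Slc38a2 at 131 ± 4.38, Slc7a1 at 83.9 ± 3.94 and Slc7a3 at 75.9 ± 6.38. Slc7a6 at 31.5 ± 2.70, Slc7a7 at 14.6 ± 3.61, Slc7a2 at 1.85 ± 0.29 and Slc7a11 at 0.54 ± 0.31 CPM per kb came last. In this order only the neighbours Slc7a1 and Slc7a3 had overlapping libraries. Slc7a5 stood above 97.4% of the 11750 tested genes in ESC total RNA and Slc7a2 above 8.70%.

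The order had changed in EpiLCs. In EpiLC RPF, Slc7a5 (530 ± 39.6 CPM per kb) and Slc3a2 (495 ± 47.4) overlapped at the top, followed by Slc38a2 (392 ± 26.9) and Slc7a3 (380 ± 22.6), which also overlapped. Slc1a5 (124 ± 2.01) and Slc7a6 (93.5 ± 3.99) were next, then Slc7a7 (47.9 ± 7.09) and Slc7a1 (44.4 ± 2.14), whose libraries overlapped, and Slc7a2 (5.19 ± 0.66) and Slc7a11 (0.69 ± 0.76). In ESC RPF, where Slc3a2 (577 ± 14.7) and Slc7a5 (545 ± 46.7) led, Slc7a1 (169 ± 16.8) stood well above Slc7a7 (9.65 ± 0.47).

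**Figure D1:**
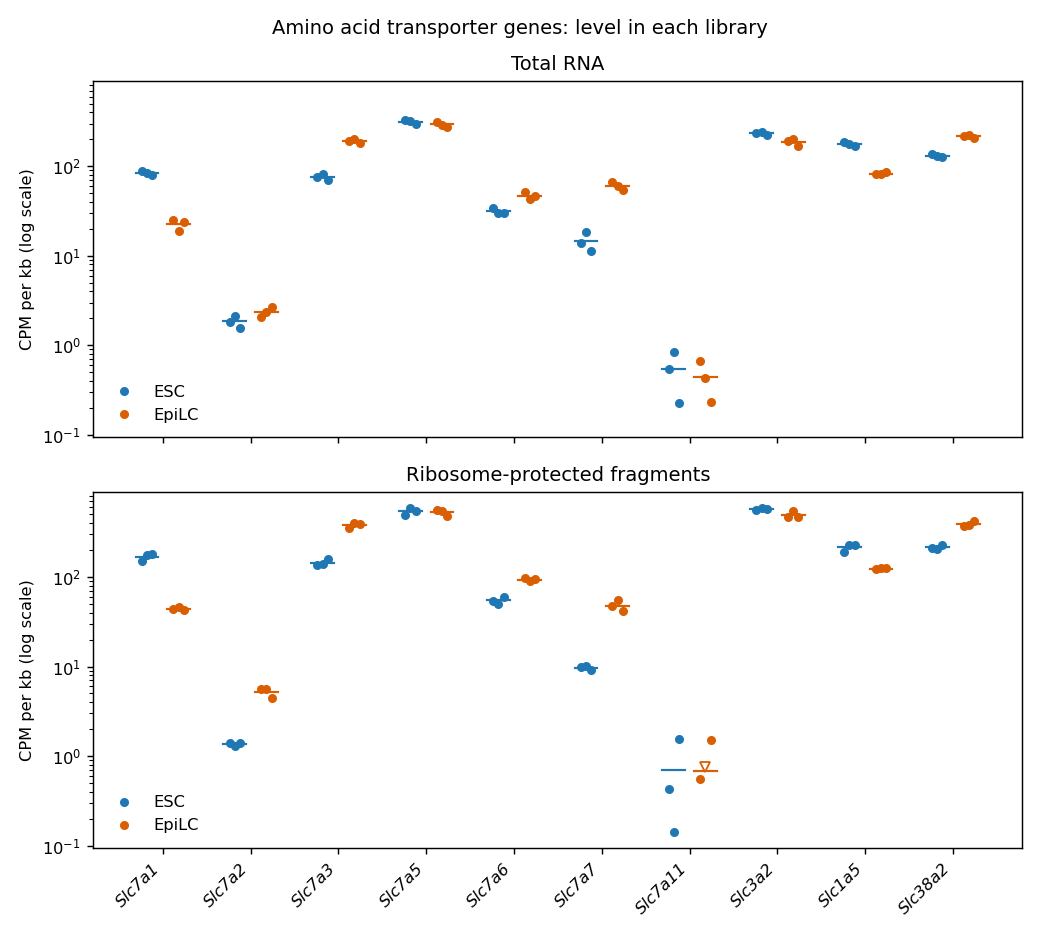
Level of each of the 10 genes in CPM per kb of counted coding sequence, on a log axis, in total RNA (upper panel) and RPF (lower panel). Points are the 3 libraries of ESCs (blue) and EpiLCs (orange), lines their means, and the open triangle is the level of 3 counts in the EpiLC RPF library in which Slc7a11 had 0. Slc7a1, Slc1a5 and Slc3a2 sit lower and Slc7a3, Slc7a6, Slc7a7 and Slc38a2 higher in EpiLCs in both panels without overlap, while Slc7a2 separates in RPF only.

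Of the 9 tested genes, 2 rose and 2 fell in total RNA by the rule used throughout, a limma p below 0.05 after adjustment over the 11750 genes together with a log2 change (EpiLC over ESC) beyond 1 in size. Slc7a3 and Slc7a7 rose, and Slc7a1 and Slc1a5 fell. Over all tested genes 14.6% rose and 9.7% fell by the same rule. In RPF, 3 rose (Slc7a2, Slc7a3 and Slc7a7) and 1 fell (Slc7a1), beside 15.4% and 10.6% of all tested genes. Without the fold limit, 4 were higher and 3 lower in total RNA (background 34.6% and 30.7%) and 5 were higher and 3 lower in RPF (31.1% and 28.7%). For TE, 1 gene rose and 0 fell, beside 0.136% and 0.119% of all genes, and the counts without the fold limit were again 1 and 0, beside 0.57% and 0.63%. At an unadjusted p below 0.05, 2 were higher for TE and 0 lower, and edgeR and DESeq2 each called 1 higher and 0 lower. The median log2 change of the 9 was 0.32 in total RNA and 0.75 in RPF, against 0.03 and 0.01 over all tested genes, with single genes between -1.87 and 2.09 in total RNA and between -1.94 and 2.28 in RPF.

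**Figure D2:**
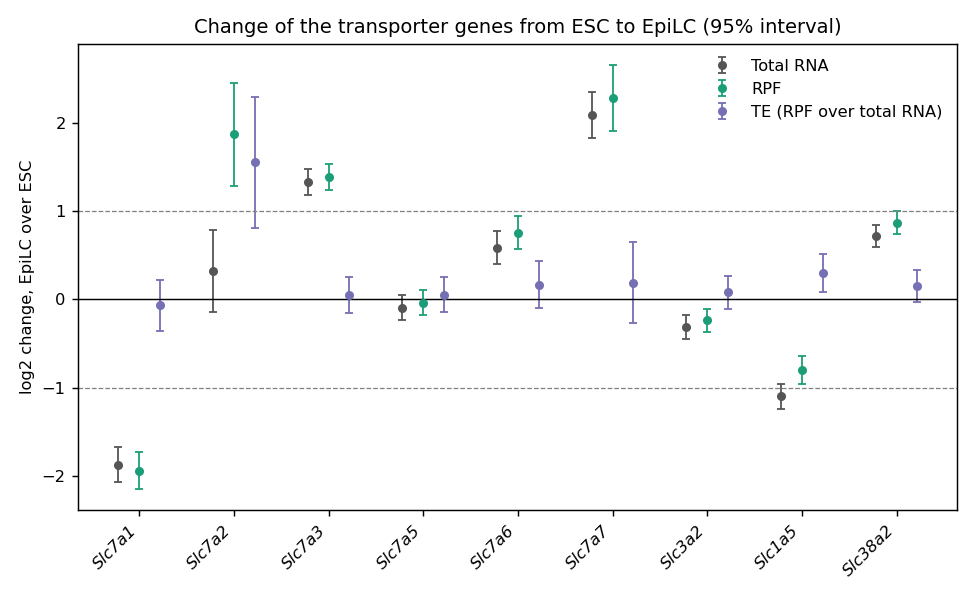
Log2 change from ESC to EpiLC of the 9 tested genes in total RNA (grey), RPF (green) and TE (purple), from limma with 95% intervals. Dashed lines mark the fold limit, a log2 change of 1 in size. The TE intervals span 0 for every gene except Slc7a2 (0.81 to 2.30) and Slc1a5 (0.09 to 0.51).

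Among the cationic amino acid carriers, Slc7a1 was lower and Slc7a3 higher in EpiLCs. Slc7a1 (ENSMUSG00000041313.14, mm10 chromosome 5, counted coding exons from 148332440 to 148352390, minus strand), the widely expressed member of this group, had 161, 151 and 147 CPM in ESC total RNA and 45.3, 34.9 and 43.2 CPM in EpiLC total RNA. In RPF it had 273, 319 and 331 CPM in ESCs and 80.0, 85.2 and 77.5 CPM in EpiLCs. Every EpiLC library lay far below every ESC library of the same assay. The log2 change was -1.87 ± 0.10 (SE, limma adjusted p 1.36e-14) in total RNA and -1.94 ± 0.10 (adjusted p 2.10e-14) in RPF, which is 3.65-fold and 3.83-fold lower. Its TE change was -0.07, with a 95% interval of -0.35 to 0.22.

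Slc7a3 (ENSMUSG00000031297.14, chromosome X, 101079462 to 101084195, minus strand) moved the other way. It had 137, 150 and 127 CPM in ESC total RNA and 348, 363 and 328 CPM in EpiLC total RNA, and 246, 250 and 288 CPM in ESC RPF against 642, 720 and 702 CPM in EpiLC RPF. No library of one cell type reached the range of the other. Its log2 change was 1.33 ± 0.07 (limma adjusted p 2.68e-14) in total RNA and 1.38 ± 0.07 (adjusted p 2.17e-14) in RPF, 2.52-fold and 2.61-fold higher, and its TE change was 0.05 (95% interval -0.16 to 0.26).

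Slc7a2 (ENSMUSG00000031596.15, chromosome 8, 40898947 to 40916534, plus strand), which is made in splice forms of differing affinity and is known as an inducible carrier in macrophages, was the least abundant of the group. Its counts in total RNA were 53, 54 and 39 in ESCs and 66, 31 and 49 in EpiLCs, or 3.86, 4.55 and 3.34 CPM against 4.41, 4.97 and 5.61 CPM. The libraries of ESCs and EpiLCs overlapped in total RNA, and the log2 change of 0.32 ± 0.23 did not pass the test (limma adjusted p 0.220, 95% interval -0.15 to 0.78). In RPF the counts were 23, 13 and 32 in ESCs and 57, 31 and 50 in EpiLCs, or 2.95, 2.77 and 2.94 CPM against 11.8, 11.8 and 9.38 CPM, so that all EpiLC RPF libraries were above all ESC RPF libraries. The RPF change was 1.87 ± 0.28 (adjusted p 3.36e-06), 3.66-fold higher.

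Slc7a2 was the 1 gene of the 9 called for TE, with a log2 change of 1.55 ± 0.36 (limma adjusted p 0.0316, 95% interval 0.81 to 2.30). The gene rested on 13 to 66 reads per library. Its adjusted p was 0.0282 by edgeR's quasi-likelihood test and 0.00851 by DESeq2, and 0.0603 when every gene with a count was tested. The call was lost in 7 of 12 fits that left out a library, where the change was 1.41 to 1.56 and the adjusted p 0.0537 to 0.0832. These were the fits without ESC RPF replicate 1, 2 or 3, EpiLC RPF replicate 1 or 2, ESC total RNA replicate 2 or EpiLC total RNA replicate 1. The 2120 nt counted for Slc7a2 merge alternative coding exons, so its splice forms could not be told apart.

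Per kb, the summed level of Slc7a1, Slc7a2 and Slc7a3 was 162 ± 8.57 CPM per kb in ESC total RNA and 216 ± 7.55 in EpiLC total RNA, and 314 ± 27.2 and 429 ± 23.4 CPM per kb in RPF. Slc7a1 made up 51.9% ± 2.12 of the sum in ESC total RNA and 10.5% ± 1.58 in EpiLC total RNA, and 53.7% ± 1.81 and 10.3% ± 0.55 in RPF. Slc7a3 made up 46.9% ± 2.00 and 88.4% ± 1.63 in total RNA and 45.9% ± 1.78 and 88.4% ± 0.73 in RPF. The share of Slc7a2 was 1.04% to 1.28% over the ESC libraries and 0.95% to 1.28% over the EpiLC libraries in total RNA, against 0.41% to 0.48% and 1.02% to 1.38% in RPF. ESCs thus held Slc7a1 and Slc7a3 in about equal parts and EpiLCs mostly Slc7a3. These sums were chosen after the values of the 3 genes were seen and are given without a test.

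**Figure D3:**
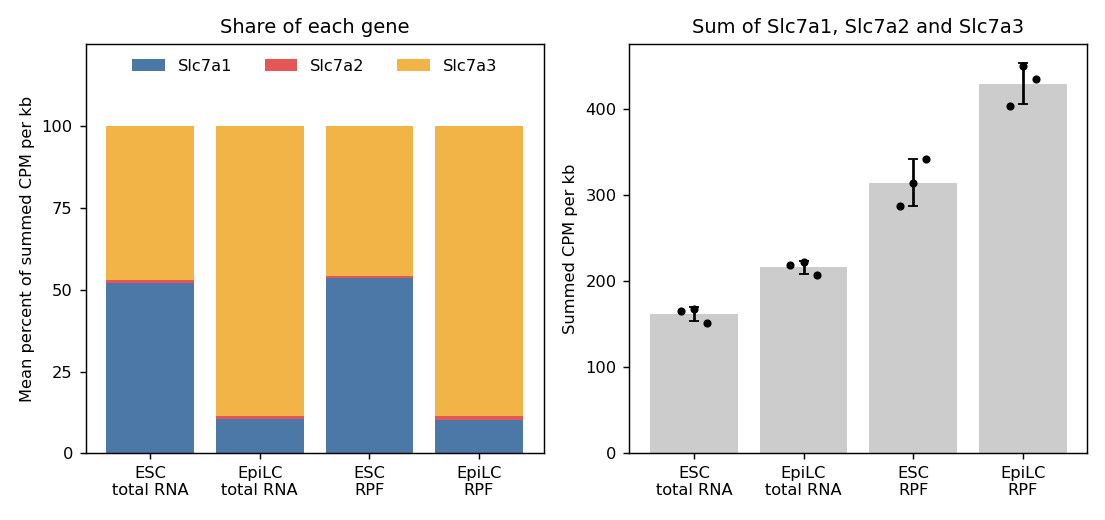
Cationic amino acid carrier genes in the 4 groups. The left panel stacks the mean share of Slc7a1 (blue), Slc7a2 (red) and Slc7a3 (yellow) in their summed CPM per kb. The right panel gives the sum, with bars for the mean, error bars for the SD and points for the 3 libraries. The share of Slc7a1 is 51.9% and 53.7% in ESCs and 10.5% and 10.3% in EpiLCs.

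Among the light chains, Slc7a7 rose the most, Slc7a6 was higher within the fold limit, and Slc7a5 was not shown to change. Slc7a7 (ENSMUSG00000000958.9, chromosome 14, 54369786 to 54408959, minus strand) encodes an exchanger of cationic for neutral amino acids, which carries arginine and lysine out of epithelial cells. It had 20.9, 27.4 and 16.7 CPM in ESC total RNA and 98.7, 89.9 and 80.8 CPM in EpiLC total RNA. In RPF it had 14.6, 14.9 and 13.6 CPM in ESCs and 69.9, 82.5 and 61.6 CPM in EpiLCs. The groups were apart in both assays. The log2 change was 2.09 ± 0.13 (limma adjusted p 2.44e-13) in total RNA and 2.28 ± 0.18 (adjusted p 7.04e-11) in RPF, 4.25-fold and 4.85-fold higher, and 0.19 for TE (95% interval -0.26 to 0.64).

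Slc7a6 (ENSMUSG00000031904.5, chromosome 8, 106179183 to 106196638, plus strand) encodes a second exchanger of this kind, found in many tissues. Its levels were 52.0, 44.7 and 45.3 CPM in ESC total RNA against 76.6, 64.4 and 69.2 CPM in EpiLC total RNA, and 81.9, 75.5 and 90.5 CPM in ESC RPF against 146, 134 and 141 CPM in EpiLC RPF. The groups did not overlap, with log2 changes of 0.58 ± 0.09 (limma adjusted p 3.84e-06) and 0.75 ± 0.09 (adjusted p 1.27e-07), both under the fold limit.

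Slc7a5 (ENSMUSG00000040010.10, chromosome 8, 121883040 to 121907561, minus strand) encodes the exchanger that brings leucine and other large neutral amino acids into growing cells. It had 489, 477 and 438 CPM in ESC total RNA and 468, 430 and 414 CPM in EpiLC total RNA, and 742, 882 and 817 CPM in ESC RPF against 836, 816 and 725 CPM in EpiLC RPF. The groups overlapped in both assays. Its log2 change was -0.09 (95% interval -0.23 to 0.05, limma adjusted p 0.235) in total RNA and -0.04 (-0.18 to 0.10, adjusted p 0.672) in RPF, so these libraries bound any change of Slc7a5 within about 0.23 on the log2 scale in either direction.

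Slc7a11 (ENSMUSG00000027737.10, chromosome 3, 49893119 to 50443216, minus strand), which encodes the light chain that imports cystine in exchange for glutamate, was close to the limit of detection. It had 11, 15 and 4 counts in ESC total RNA, 15, 4 and 3 in EpiLC total RNA, 5, 1 and 25 in ESC RPF and 4, 0 and 12 in EpiLC RPF. In CPM the highest value was 2.29, in ESC RPF replicate 3, with 2.25 in EpiLC RPF replicate 3. The count of 0 in EpiLC RPF replicate 2 allows a level of up to 1.141 CPM, the level of 3 counts there, a limit for counting error alone. The cell types overlapped in both assays, and a difference of Slc7a11 between them was not detectable at this depth. No fold is given.

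The heavy chain gene Slc3a2 (ENSMUSG00000010095.13, chromosome 19, 8707723 to 8723050, minus strand), whose product also binds integrins, was slightly lower in EpiLCs. It had 386, 396 and 370 CPM in ESC total RNA and 318, 331 and 279 CPM in EpiLC total RNA, and 927, 975 and 958 CPM in ESC RPF against 771, 909 and 776 CPM in EpiLC RPF. Its log2 change was -0.32 ± 0.07 (limma adjusted p 1.60e-04) in total RNA and -0.23 ± 0.06 (adjusted p 0.00217) in RPF, both under the fold limit. The groups did not overlap, but in RPF the nearest libraries, at 927 CPM in ESCs and 909 CPM in EpiLCs, were close.

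The 4 light chains summed per kb were set against Slc3a2. The ratio was 1.61, 1.54 and 1.497 in ESC total RNA and 2.24, 1.96 and 2.24 in EpiLC total RNA, and 1.001, 1.10 and 1.07 in ESC RPF against 1.51, 1.26 and 1.33 in EpiLC RPF. All EpiLC ratios lay above all ESC ratios of the same assay. The log2 ratio was higher by 0.47 in EpiLC total RNA and by 0.37 in EpiLC RPF, with an exact permutation p of 0.1 in each case (2-sided), the smallest that 3 against 3 libraries can give, so neither could pass 0.05. Slc7a5 made up 87.1% ± 0.45 of the summed light chains in ESC total RNA and 73.2% ± 0.47 in EpiLC total RNA, and 89.2% ± 1.28 and 78.8% ± 0.73 in RPF. Slc7a7 went from 4.03% ± 0.86 to 15.1% ± 0.59 in total RNA and from 1.59% ± 0.14 to 7.11% ± 0.79 in RPF.

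Slc7a8 and Slc7a10, which encode other light chains of Slc3a2, had few reads. Slc7a8 fell in total RNA by 1.29 on the log2 scale (SE 0.40, limma adjusted p 0.00607) and changed by -0.88 in RPF (adjusted p 0.0350), under the fold limit. In the 12 fits that left out a library this RPF change was -1.12 to -0.81 (limma adjusted p 0.0123 to 0.116), and 2 called it. Slc7a8 gave 39, 30 and 29 counts in ESC total RNA and 21, 4 and 8 in EpiLC total RNA. Slc7a8 reached the count minimum of 3 CPM in the ESC RPF libraries (5.77, 7.45 and 4.68 CPM). In EpiLCs only RPF replicate 1 did so (3.73 CPM), so Slc7a8 could only be tested because it was high in ESC RPF. Slc7a10 was not tested, with 1, 0 and 1 counts in ESC total RNA, 23, 12 and 13 in EpiLC total RNA, 4, 0 and 1 in ESC RPF and 7, 2 and 3 in EpiLC RPF.

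The glutamine carriers moved in opposite directions. Slc1a5 (ENSMUSG00000001918.17, chromosome 7, 16781946 to 16797739, plus strand), which exchanges glutamine with other neutral amino acids, had 301, 288 and 272 CPM in ESC total RNA and 132, 132 and 140 CPM in EpiLC total RNA. In RPF it had 312, 372 and 369 CPM in ESCs and 197, 203 and 203 CPM in EpiLCs. The groups were apart in both assays. Slc1a5 fell by 1.10 ± 0.07 on the log2 scale in total RNA (limma adjusted p 6.59e-13), 2.14-fold. In RPF its log2 change was -0.80 ± 0.08 (adjusted p 2.34e-09), 1.74-fold lower and under the fold limit. The difference between the assays, a TE change of 0.30 ± 0.10, did not pass the test (adjusted p 0.167).

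Slc38a2 (ENSMUSG00000022462.6, chromosome 15, 96690127 to 96698685, minus strand) encodes a sodium-coupled importer of small neutral amino acids that is known to be induced when amino acids run short. It had 199, 191 and 186 CPM in ESC total RNA and 316, 324 and 308 CPM in EpiLC total RNA, and 311, 301 and 331 CPM in ESC RPF against 545, 563 and 621 CPM in EpiLC RPF. Its EpiLC libraries were all higher, by 0.72 ± 0.06 (limma adjusted p 1.60e-10) in total RNA and 0.87 ± 0.06 (adjusted p 1.13e-11) in RPF on the log2 scale, both within the fold limit. The TE change was 0.15 (95% interval -0.03 to 0.33). Per kb, Slc1a5 was above Slc38a2 in ESC total RNA (177 against 131 CPM per kb) and below it in EpiLC total RNA (82.9 against 215).

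Within each cell type, most of the transporter mRNAs carried more RPF reads for their total RNA than the typical gene. The log2 TE (log2 RPF CPM minus log2 total RNA CPM) of the median tested gene was -0.03 in ESCs and -0.02 in EpiLCs. Slc3a2 had the highest value of the 9 in both, at 1.31 ± 0.06 in ESCs and 1.40 ± 0.19 in EpiLCs, above 96.3% and 96.1% of tested genes. In this paragraph ± is a combined SD, the square root of the summed variances of the RPF and total RNA libraries. Slc7a1, Slc7a3, Slc7a5, Slc7a6 and Slc38a2 lay between 0.71 and 1.00 in ESCs and between 0.86 and 1.01 in EpiLCs, above 84.5% to 92.1% and 86.8% to 90.5% of tested genes. Slc1a5 was at 0.29 and 0.58. Slc7a7 was below the median gene in both, at -0.56 ± 0.36 in ESCs and -0.34 ± 0.26 in EpiLCs. Slc7a2 went from -0.43 ± 0.23 in ESCs (above 32.2% of genes) to 1.13 ± 0.26 in EpiLCs (above 92.7%), close to Slc7a1 and Slc7a3. These levels are descriptions without a test, since total RNA and RPF libraries differ in read length and preparation.

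**Figure D4:**
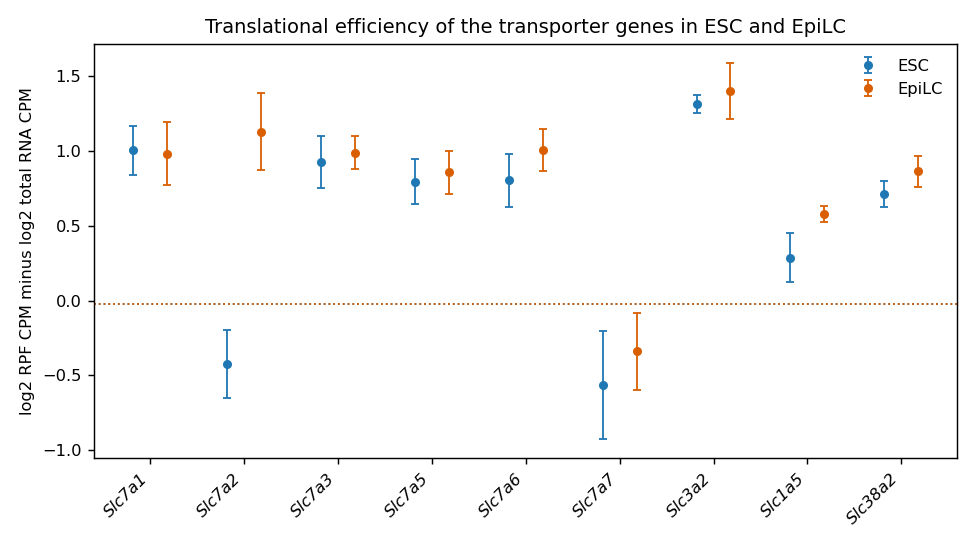
Translational efficiency of the 9 tested genes in ESCs (blue) and EpiLCs (orange), as log2 RPF CPM minus log2 total RNA CPM. Error bars are the combined SD, the square root of the summed variances of the RPF and total RNA libraries. Dotted lines mark the median of all tested genes, at -0.03 and -0.02. Slc7a2 lies below the line in ESCs (-0.43) and above it in EpiLCs (1.13), while the other genes stay on the same side in both.

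The genes whose profile over the 12 libraries was most like that of Slc7a7, which had the largest RPF change of the 9 tested members, were Slc4a4, Ptpn14 and Cyfip2. The root mean square distance of their centred log2 CPM from Slc7a7 was 0.15 for each, against a median of 1.21 over tested genes. Their RPF changes were 2.14, 2.30 and 2.24 and their total RNA changes 2.27, 2.04 and 2.09 on the log2 scale. The genes were picked for nearness over the same 12 libraries, so changes close to those of Slc7a7 follow from the choice and are no separate result.

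Promoter sequence was searched for the letters TGATGNAA on both strands, the element through which ATF4 and its C/EBP partners act on genes of amino acid shortage. Atf4 itself, the main transcription factor of that response, had 474, 459 and 448 CPM in ESC total RNA and 339, 339 and 337 CPM in EpiLC total RNA, and 138, 130 and 119 CPM in ESC RPF against 80.3, 72.3 and 61.9 CPM in EpiLC RPF. Its log2 change was -0.44 ± 0.06 (limma adjusted p 2.38e-07) in total RNA and -0.86 ± 0.10 (adjusted p 4.93e-08) in RPF, both under the fold limit. Its TE change of -0.41 (95% interval -0.65 to -0.18) did not pass the test (limma adjusted p 0.0714). In the fits that left out a library this adjusted p ranged from 0.0363 to 0.314, with changes of -0.53 to -0.29. RefSeq promoters (GRCm38.p6, the 250 bases before and 50 after a start site) were given for 6 of the 10 genes, with 12 promoters in all. Slc7a2, Slc7a3, Slc7a5 and Slc1a5 had no entry. The letters stood in 3 of the 12 promoters, those of Slc7a11 and Slc7a7, against 3.97% of all 32851 promoters in the table. By gene this was 2 of 6 members, against 4.51% of all 27025 genes. Sequence outside these promoters was not searched, so the other members may hold the element elsewhere. Windows of 30 bases around the matches before the start sites are shown for the searched members with a match. The letters of the element are in capitals, 5′ to 3′ on the strand of the gene.
Slc7a11, chr3:50443651-50443680, minus strand: cTGATGCAAacctggagaatTTGCATCAtc
Slc7a7, chr14:54418067-54418096, minus strand: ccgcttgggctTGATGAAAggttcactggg
Slc7a7, chr14:54417923-54417952, minus strand: tagaagcTGATGCAAcagcttccccgaggg
Slc7a11 held the element once on each strand in a single window, the first match beginning 66 bases before the start site. In Slc7a7 the matches shown began 141 and 243 bases before the start sites of their own promoters, which belong to different transcripts. These promoters, at 54417895 to 54418194 and 54417653 to 54417952, overlap. The second site shown lies in both, across the start site of the first, so the Slc7a7 promoters are not separate stretches of sequence. Slc7a7 rose in EpiLCs, while Slc7a11 was near the detection limit in both cell types and was not tested. The changes of the members with a match therefore could not be compared, and a link of the letters to the changes was not tested. A match is a description of sequence and says nothing of binding in these cells.

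A list of 44 other amino acid transporter genes gave 21 with enough reads to test. Of these, 8 rose and 3 fell in total RNA (14.6% and 9.7% of all genes), and 8 rose and 2 fell in RPF (15.4% and 10.6%), with a median log2 change of 0.15 and 0.37. For TE, 0 were called by limma, edgeR or DESeq2, and 0 were higher and 2 lower at an unadjusted limma p below 0.05, Slc43a1 and Slc38a10, named after their values were seen. The largest RPF rises were those of Slc1a6 (3.38 ± 0.53 on the log2 scale), Slc1a3 (2.66 ± 0.16) and Slc16a10 (2.53 ± 0.26). Slc1a6 and Slc1a3 encode glutamate carriers and Slc16a10 a carrier of aromatic amino acids. Slc1a3 had 9.61, 12.1 and 9.63 CPM in ESC RPF and 62.6, 59.3 and 68.5 CPM in EpiLC RPF. Slc1a6 passed the count minimum through its EpiLC libraries alone, at 5.39 to 6.84 CPM in RPF against 0.37 to 0.90 CPM in ESCs, so it could only be tested because it was high there. Slc7a4 and Slc38a3, which also rose in both assays, reached 3 CPM in too few ESC libraries to pass without those of EpiLCs. In ESC RPF they had 2.69, 4.47 and 2.84 CPM and 2.44, 5.74 and 3.94 CPM. The falls in total RNA, of Slc1a1, Slc38a5 and Slc7a8, needed the ESC libraries likewise. The counts of rises and falls above hold these genes and are no result about the list. Slc7a4 and Slc38a3 are named after their values were seen.

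The glutamate carrier gene Slc1a1 and the glutamine carrier gene Slc38a5 fell in RPF. Slc1a1 had 8.85, 12.6 and 9.45 CPM in ESC RPF and 1.04, 2.66 and 2.44 CPM in EpiLC RPF, and fell by 2.34 ± 0.43 on the log2 scale (limma adjusted p 4.38e-05). It passed the count minimum through its ESC libraries alone, so it could only be tested because it was high there. Slc38a5 fell by 1.13 ± 0.43 in RPF (limma adjusted p 0.0265) on 6 to 72 reads per library. This call was lost without ESC RPF replicate 3 (-0.88, adjusted p 0.108) or EpiLC RPF replicate 1 (-0.66, adjusted p 0.215). Slc38a5 had 4.36, 4.25 and 6.61 CPM in ESC RPF, and in EpiLCs only RPF replicate 3 reached the count minimum (3.75 CPM). It too could only be tested because it was high in ESCs.

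Of 45 genes of amino acid metabolism and its regulation, 43 were tested, with 5 higher and 11 lower in total RNA and 3 higher and 10 lower in RPF, beside 14.6%, 9.7%, 15.4% and 10.6% of all genes. The median log2 change was -0.44 and -0.56, against 0.03 and 0.01 over all tested genes, and 0 were called for TE by limma, edgeR or DESeq2, with 2 higher and 6 lower at an unadjusted limma p below 0.05. The RPF rises included those of Gclc and Gclm, the subunits of the enzyme that joins glutamate to cysteine in glutathione synthesis (1.38 ± 0.09 and 1.27 ± 0.09). Gclc went from 71.5, 63.8 and 63.1 CPM in ESC RPF to 167, 164 and 184 CPM in EpiLC RPF, with no overlap between the groups.

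The largest falls in RPF were those of Tdh, Gpx4 and Ass1. Tdh, threonine dehydrogenase, on which mouse ESCs are known to depend, went from 493, 570 and 565 CPM in ESC RPF to 32.4, 13.3 and 10.7 CPM in EpiLC RPF, a log2 change of -4.98 ± 0.23 (limma adjusted p 2.28e-15). Gpx4, which uses glutathione to remove lipid peroxides, changed by -2.27 ± 0.20 and Ass1, an enzyme of arginine synthesis, by -2.17 ± 0.20 in RPF. Of the 7 genes listed for glutathione, 2 rose (Gclc and Gclm) and 2 fell (Gpx4 and Gss, a glutathione synthesis enzyme) in RPF, counts too small to set against the 15.4% and 10.6% of all genes. Of the 7 regulators 1 fell in RPF, Trib3, a share near the background, and Gldc and Txnrd1 rose in total RNA but not past the fold limit in RPF. Gss, Trib3, Gldc and Txnrd1 are named after their values were seen.

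**Figure D5:**
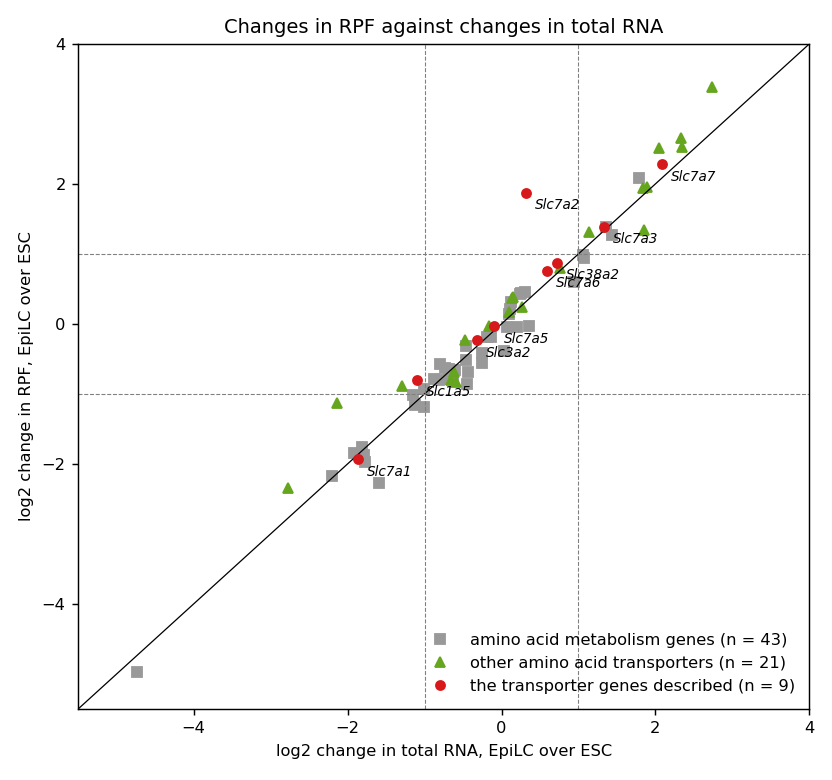
Log2 change in RPF against log2 change in total RNA, EpiLC over ESC, for the 9 tested transporter genes (red), 21 other amino acid transporters (green) and 43 amino acid metabolism genes (grey). The line marks equal change and the dashed lines the fold limit. Slc7a2, at 0.32 in total RNA and 1.87 in RPF, stands apart from the line, and the lowest point is Tdh at -4.74 and -4.98.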

How the data were processed

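The authors deposited raw counts per gene for 12 libraries in 1 table, with replicates not pooled, together with the counted length. Per the methods and labels, adapters were removed with cutadapt 1.14, reads with a single position on mm10 (Gencode M14) were kept with STAR 2.5.3a, and 5′ read ends on the sense strand of coding sequence, without its start, were counted with featureCounts 1.5.3. The sources used here give no handling of PCR duplicates, and limits from counts therefore cover counting error alone. Of all 28-base runs in the members' coding sequences, 1 of Slc7a5 and 0 of the other members also occur in annotated transcripts of another gene (Gencode M21).

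Here, genes were kept at 3 or more CPM in at least 3 libraries (11750 genes), scaled by TMM (edgeR 4.0.16) and fitted with voom and limma 3.58.1 in R 4.3.3, with the 4 groups as levels and no block. TE is the interaction of assay and cell type. Adjustment (Benjamini-Hochberg) ran over all tested genes. Limma, the interaction, the CPM filter and the calling thresholds (0.05 for the adjusted p and 1 for the log2 change) are those of the study, while voom and TMM were chosen here. TE levels used a prior count of 0.5. The fits were tested on simulated data. Alternatives were edgeR's quasi-likelihood test, DESeq2 1.42.0, limma-trend, other scaling and filters, blocks, no fold limit, and leaving out each library. In 12 same-group pairs, counts differed by 2.48 to 7.62 times the variance that sampling gives (chi-square per degree of freedom), so no library was taken as a repeat of another.

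The members and lists were chosen with earlier results of these data known. All 10 members are named. From each list the named genes are up to 3 largest rises and falls in RPF among called genes and any gene called for TE, with Slc7a8, Slc7a10, Atf4 and 6 markers, and the 3 genes nearest in profile to the member with the largest RPF change. A result within this rule is left out and not reported here.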

Additional observations from a re-analysis of the deposited data

Results flagged for a closer look

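The change of Slc7a2 differed between the assays. Its log2 change from ESC to EpiLC was 0.32 ± 0.23 in total RNA and 1.87 ± 0.28 in RPF, and the test of the difference itself, the interaction in limma, gave 1.552 on the log2 scale (adjusted p 0.0316). Groups of 3 libraries are too small for a check of single outlying libraries.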

How the results depend on the processing

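Of 280 alternative values for the counts of called genes and the chain ratios, 262 stayed within the limits set for them (a count within 1.5 times, a ratio within 1 SD). Without the fold limit, the members called higher were 4 in total RNA and 5 in RPF and those called lower 3 in RPF, the other transporters called were 17 and 16, and the metabolism genes called were 35 and 37, since this rule calls more genes by construction. Testing every gene with a count gave 19 and 16 other transporters called in total RNA and RPF and 0 members for TE, where more genes shared the adjustment. Requiring 10 counts in every library left 7 other transporters called in total RNA, with fewer genes tested. Leaving out 1 library gave 0 to 1 members called for TE. No call of a member in total RNA or RPF was lost or changed direction in any of these alternatives. For single named genes, 1552 of 1584 alternative values kept their direction and call or stayed within 1 SD. Leaving out a library turned the sign of small changes that were not called: the TE change ranged from -0.16 to 0.01786 for Slc7a1, from -0.007452 to 0.14 for Slc7a3 and from -0.01243 to 0.13 for Slc7a5, and the RPF change of Slc7a5 from -0.14 to 0.003437. The log2 light to heavy chain ratio ranged from 0.43 to 0.53 in total RNA and from 0.29 to 0.42 in RPF without a library.

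Same-numbered libraries did not deviate together, with correlations of -0.12 to 0.12 across genes. The study describes total RNA as matched to RPF, and with both library types of each culture number joined as a culture block, the TE change of Slc7a2 was 1.549 (adjusted p 0.0222), with the same counts of called members. With the replicate number as a block, 2 members were called higher and 2 lower in total RNA, 3 and 1 in RPF and 1 and 0 for TE, the same counts as without it, and the TE change of Slc7a2 was 1.55 (adjusted p 0.0248). The block ended 1 call named above, the RPF fall of Slc38a5, at -0.9931 on the log2 scale. Depth limits Slc7a11 and Slc7a10 most, since 3 counts equal 0.20 to 1.141 CPM, and the TE of Slc7a2, which rests on 13 to 66 reads per library. The counts do not separate splice forms, and mRNA and ribosome occupancy were measured here, not protein or transport.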
